A study of Rattus norvegicus with 8 samples.

Results

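The genes described here are 31 named genes of 2 signalling pathways, 20 of the Notch pathway and 11 of the Hedgehog pathway, taken by gene name. Probes were taken where the gene name column of the scanner files equalled a member's symbol. All 20 Notch genes and 9 of the 11 Hedgehog genes had a probe, 38 probes of 30367 on the array. Boc and Hhip had none. Of the 29 genes with a probe, 26 were bright enough to be tested, among 18860 tested features in all: all 20 Notch genes and 6 Hedgehog genes. Ihh, Gli3 and Cdon were not.

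Hippocampal RNA was measured in 8 rats, all Sprague Dawley males, 3 months old. Vehicle was given to 4 animals and Y+I to the other 4, each for 7 days, and the labels give a time of 2 h. By the series title Y+I combines yohimbine, an antagonist of alpha2-adrenergic receptors, with imipramine, a tricyclic compound that blocks the transporters for noradrenaline and serotonin. Every animal had its own 1-colour array, and neither drug was analysed here by itself, so the comparison does not separate them.

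Notch receptors are single-pass membrane proteins that bind Delta and Jagged ligands on a neighbouring cell. Binding lets proteases release the intracellular domain, which joins the DNA-binding protein RBPJ and the coactivator Mastermind and turns on Hes and Hey repressor genes. Secreted Hedgehog ligands instead bind Patched, which lifts its block on Smoothened, and GLI transcription factors then act on target genes that include Gli1 and Ptch1 themselves. In the adult hippocampus both pathways are known from neural stem cells of the dentate gyrus and from astrocytes, and Notch also from blood vessels.

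Values are log2 signals relative to the 75th percentile of each array, so a value below 0 is dimmer than that percentile. They compare animals for one probe, and levels are not compared between genes. Between 76.4% and 79.8% of spots were well above background on vehicle arrays and between 64.4% and 74.8% on Y+I arrays, with Y+I animals 2 and 3 lowest. Of the 26 tested members, 26 were well above background on each vehicle array, but 24, 21, 17 and 26 on the arrays of Y+I animals 1 to 4. For 9 members at least 1 Y+I array missed that mark, so that they entered the test through vehicle: Notch2, Dll1, Dll4, Hey2, Heyl, Maml1, Shh, Ptch1 and Gli1. A gene kept in this way had to be brighter in vehicle or near the limit, so the differences of these 9 are given as values, with no p or fold. The arrays lay on 1 slide with vehicle on one row and Y+I on the other, and row and treatment cannot be told apart.

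No member passed the threshold in either pathway. At a limma adjusted p under 0.05, 0 of 20 Notch genes and 0 of 6 Hedgehog genes were called, where 2.34% of all features were (0.737% higher and 1.6% lower in Y+I) and 2.06% of those well above background on all 8 arrays. Of the 17 members well above background on all 8 arrays, the Notch target Hes5 had the smallest adjusted p, 0.0636, followed by 0.157 for Dll3. Without adjustment, 6 of the 14 such Notch genes had p under 0.05, with Notch4, Hes1 and Lfng higher and Dll3, Jag1 and Hes5 lower in Y+I. Of the 3 such Hedgehog genes 1 did, Gli2, which was higher. The share over all features detected on the 8 arrays was 14.7%, and over all tested features 15.6% (6.45% higher and 9.17% lower). Groups did not overlap for Hes5 and, at its brighter probe only, for Dll3, both lower in Y+I. The same was so for 12% of features detected on all 8 arrays and 11.7% of all features (5.04% higher and 6.66% lower). The 9 other members had been kept through vehicle, so they are not counted by unadjusted p and nothing is read from their direction.

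The median log2 difference, Y+I minus vehicle, was -0.10 over the Notch genes and -0.30 over the Hedgehog genes, beside -0.02 over all features. Of the 6 Hedgehog genes behind that value, 3 had been kept through vehicle. Over the members measured on all 8 arrays the medians were 0.04 and 0.01, and normexp background correction, which models background in place of subtracting it, turned those of all tested members to 0.13 and 0.14, beside 0.09 over all features. Within groups the animals were more alike under vehicle, where the median SD of a member was 0.15, than under Y+I, where it was 0.27. The SD was larger in Y+I for 21 of the 26 members. Over all features the median SD was 0.134 in vehicle and 0.239 in Y+I, so the wider spread was not particular to the members.

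**Figure D1:**
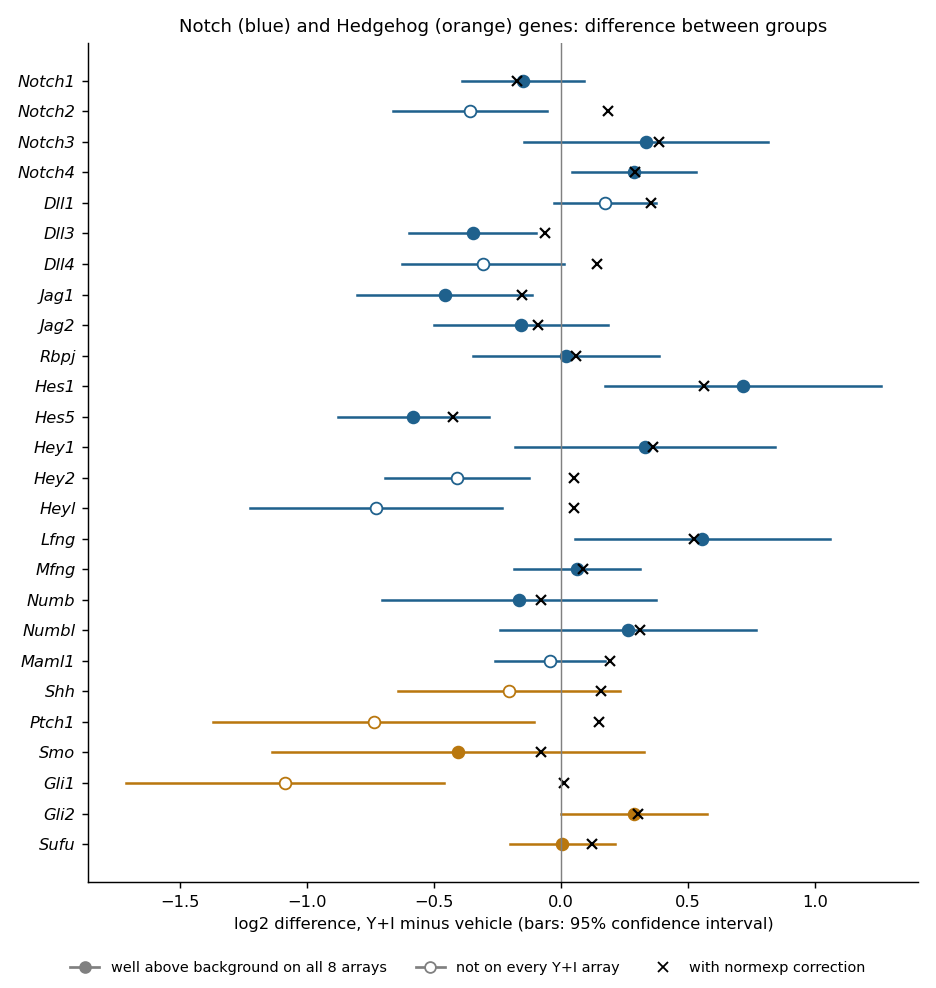
Log2 difference (Y+I minus vehicle, horizontal axis) for each tested Notch (blue) and Hedgehog (orange) gene with its 95% confidence interval, n = 4 animals per group; hollow points missed clear detection on at least 1 Y+I array, and crosses give the same probe after normexp background correction. The intervals of hollow points are drawn but not read, since these genes were kept through vehicle. Hes1 and Lfng lie farthest to the right, at 0.72 and 0.56, and Gli1, detected on 1 Y+I array, farthest to the left at -1.08, where its cross stands at 0.01.

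The 4 Notch receptors did not move as one. Notch1, a receptor of neural stem cells and astrocytes, had a mean of -0.14 ± 0.13 (SD, n = 4) in vehicle and -0.29 ± 0.12 in Y+I. The groups overlapped and the difference was -0.15 ± 0.11 (SE, n = 4 per group, limma adjusted p = 0.553), with an interval from -0.39 to 0.09. Notch4, known from endothelial cells, had -2.03, -2.10, -2.24 and -2.18 under vehicle against -1.69, -2.07, -1.86 and -1.78 under Y+I. Only Y+I animal 2 reached into the vehicle range, and the difference was 0.29 ± 0.11 (adjusted p = 0.235). Notch3, the receptor of vascular mural cells, differed by 0.34 ± 0.21 (adjusted p = 0.501), largely through Y+I animal 4 at -2.23, where the other 7 animals lay between -3.37 and -2.82. Notch2, also present in stem cells and glia, had -5.36, -5.36, -5.31 and -5.21 in vehicle and -5.91, -5.81, -5.64 and -5.32 in Y+I. Only Y+I animal 4 reached the vehicle range. The difference of -0.36 rests on a probe that cleared background on 2 of 4 Y+I arrays, and with normexp background correction it turned to 0.19.

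Of the ligands, Dll3 and Jag1 were lower in Y+I without passing. Dll3, a divergent Delta protein that does not activate receptors on other cells, had -3.76, -3.81, -3.75 and -3.70 in vehicle and -4.26, -4.14, -4.17 and -3.84 in Y+I. The groups did not overlap, with Y+I animal 4 nearest to vehicle, and the difference was -0.35 ± 0.11 (SE, adjusted p = 0.157). At its other probe it was -0.18, and normexp brought the first probe to -0.06. Jag1, the ligand of endothelium, smooth muscle and neural stem cells, had -3.07, -3.35, -3.32 and -3.37 in vehicle and -3.92, -3.31, -3.83 and -3.87 in Y+I. Of the 4 Y+I animals, 3 were below every vehicle animal and animal 2 was not. Its difference was -0.46 ± 0.15 (adjusted p = 0.177), and -0.60 (adjusted p = 0.0368) without Y+I animal 2, so that 1 animal decided the call. With normexp it shrank to -0.15.

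The other ligands had smaller differences. Dll1, which maintains progenitors through lateral inhibition, differed by 0.17, with vehicle animals between -5.90 and -5.71 and Y+I animals between -5.72 and -5.60. Dll4, the ligand of endothelial tip cells, differed by -0.30. The tested probes of both genes cleared background on 2 Y+I arrays only, and the normexp values were 0.35 for Dll1 and 0.14 for Dll4. A second Dll4 probe gave 0.33, but it cleared background on 1 vehicle and 1 Y+I array and was not kept. Jag2 stood at -0.16 ± 0.15 (SE, adjusted p = 0.677).

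The nuclear partners lay close to 0. For Maml1, a Mastermind coactivator, the difference was -0.04 at a probe that cleared background on 3 Y+I arrays, and 0.19 with normexp. For Rbpj it was 0.02 ± 0.16 (SE, adjusted p = 0.969), from -0.34 to 0.39. The identity of the Rbpj signal is uncertain: both of its probes are placed on chromosome 5 of the build rn4, whereas the RefSeq table of assembly GRCr8 has Rbpj on chromosome 14 and an Rbpj-like pseudogene, Rbpjl2, on chromosome 5.

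The 5 target genes split. Hes5, a repressor that Notch activates in neural stem cells and astrocytes, had -2.12, -2.15, -2.12 and -2.20 in vehicle animals 1 to 4 and -2.96, -2.92, -2.60 and -2.43 in Y+I animals 1 to 4. Vehicle animals lay within a narrow band (SD 0.04) and every Y+I animal was below it, animals 1 and 2 farthest. The mean went from -2.15 ± 0.04 (SD, n = 4) to -2.73 ± 0.25, a 1.5-fold lower signal, with a log2 difference of -0.58 ± 0.13 (SE, interval -0.88 to -0.28, limma adjusted p = 0.0636). Its probe, at chr5:171764166-171764225 of rn4, was well above background on all 8 arrays, and normexp gave -0.42. The call turned with the processing: Hes5 passed with the filter on all 8 arrays (adjusted p = 0.0483), without a filter (0.0391), with array weights (0.0169) and without Y+I animal 4 (0.0351), and in none of the other 16 alternatives, where the adjusted p reached 0.166.

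Hes1, the repressor that in many cell types oscillates and also answers signals other than Notch, had the opposite sign. Its values were -4.30, -3.79, -3.66 and -3.89 in vehicle and -3.52, -2.80, -3.69 and -2.77 in Y+I. Y+I animals 2 and 4 were well above all vehicle animals, whereas animal 3 lay within the vehicle range. The mean went from -3.91 ± 0.28 (SD, n = 4) to -3.20 ± 0.48, 1.64-fold higher, with a log2 difference of 0.72 ± 0.24 (SE, interval 0.17 to 1.26, adjusted p = 0.181). Hes1 passed in none of the 20 alternatives and was above 0 in each, between 0.50 and 0.88. Its probe lies at chr11:72603477-72603538 of rn4.

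The 3 Hey genes encode related repressors. Hey1 differed by 0.33 ± 0.23 (SE, adjusted p = 0.536), with vehicle animals between -3.72 and -3.13 and Y+I animals between -3.63 and -2.72. Hey2, known from endothelium and vascular smooth muscle, had -4.70, -4.63, -5.10 and -4.90 in vehicle and -5.35, -5.30, -5.24 and -5.08 in Y+I, a difference of -0.41. Only Y+I animal 4 reached into the vehicle range. At a second kept Hey2 probe the difference was -0.24. There Y+I animal 2, at -4.78, was above every vehicle animal, animal 4 was within their range, and animals 1 and 3 were below it. Heyl, a target that NOTCH3 activates in mural cells, had -4.98, -5.69, -5.08 and -5.15 in vehicle and -5.77, -5.57, -6.46 and -6.00 in Y+I. The difference was -0.73, with vehicle animal 2 inside the Y+I range. Hey2 and Heyl cleared background on 3 of 4 Y+I arrays, and at the tested probes normexp gave 0.05 for each.

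The promoters of Hes1, Hes5 and Lfng are shown because these genes have matches to the core of the RBPJ site and had differences of opposite sign. Windows of 300 bases, from 250 before to 50 after the start, came from RefSeq on GRCr8, 5′ to 3′ along the gene, with matches to TGGGAA or GTGGGAA on either strand (TTCCCA or TTCCCAC on the other) in capitals. Hes1 is on the minus strand at chr11:84212996-84213295, Hes5 on the plus strand at chr5:170804327-170804626 and Lfng on the minus strand at chr12:19152869-19153168.
Hes1: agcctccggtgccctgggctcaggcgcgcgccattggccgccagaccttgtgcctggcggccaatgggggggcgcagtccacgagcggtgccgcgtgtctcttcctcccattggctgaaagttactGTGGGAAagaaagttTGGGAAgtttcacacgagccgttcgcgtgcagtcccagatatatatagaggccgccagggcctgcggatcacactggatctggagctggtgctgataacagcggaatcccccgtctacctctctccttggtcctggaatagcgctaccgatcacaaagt
Hes5: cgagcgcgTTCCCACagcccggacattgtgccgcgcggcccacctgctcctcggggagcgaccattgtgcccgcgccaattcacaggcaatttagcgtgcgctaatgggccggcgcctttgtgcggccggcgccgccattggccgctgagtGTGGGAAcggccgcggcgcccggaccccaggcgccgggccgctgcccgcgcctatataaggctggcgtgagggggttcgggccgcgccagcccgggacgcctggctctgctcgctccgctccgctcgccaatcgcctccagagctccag
Lfng: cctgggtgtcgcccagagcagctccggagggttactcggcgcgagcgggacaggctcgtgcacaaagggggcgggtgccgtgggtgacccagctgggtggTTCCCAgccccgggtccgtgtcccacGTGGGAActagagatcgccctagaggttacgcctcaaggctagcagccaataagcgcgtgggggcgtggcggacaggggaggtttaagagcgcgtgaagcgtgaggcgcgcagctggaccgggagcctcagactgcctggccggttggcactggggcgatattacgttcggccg
Counted from the start site as 1, with no position 0, the TGGGAA matches of Hes1 begin at -123 and -109 on the same strand. Those of Hes5 begin at -242 and -98 and those of Lfng at -150 and -123, the upstream match on the other strand in both. Hes5 has the longer form at both places and Hes1 and Lfng at 1 each; the longer form contains the shorter. Of 33469 windows in the RefSeq table, 25.7% held TGGGAA and 6.29% GTGGGAA. Of the 17 Notch genes with a window, 8 held the shorter and 5 the longer form. A match describes letters in this window and not binding.

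Among genes that modulate Notch signalling, Lfng, a Fringe glycosyltransferase that changes which ligands a receptor answers, had the largest difference. Vehicle animals had -2.88, -3.08, -3.12 and -2.98 and Y+I animals -2.06, -2.36, -3.17 and -2.24. Animals 1, 2 and 4 of Y+I were above every vehicle animal, and animal 3 was below all of them. The difference was 0.56 ± 0.22 (SE, interval 0.06 to 1.06, adjusted p = 0.262). Without Y+I animal 3 it was 0.79 and passed (adjusted p = 0.0213), and without Y+I animals 2 and 3 it was 0.86 (adjusted p = 0.0374). Mfng, a second Fringe enzyme, differed by 0.06 ± 0.11 (adjusted p = 0.834). Numb and Numbl, inhibitors that direct Notch to degradation, differed by -0.17 ± 0.24 (adjusted p = 0.795) and 0.26 ± 0.22 (adjusted p = 0.625). For Numb the sign turned to 0.20 without Y+I animals 2 and 3.

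**Figure D2:**
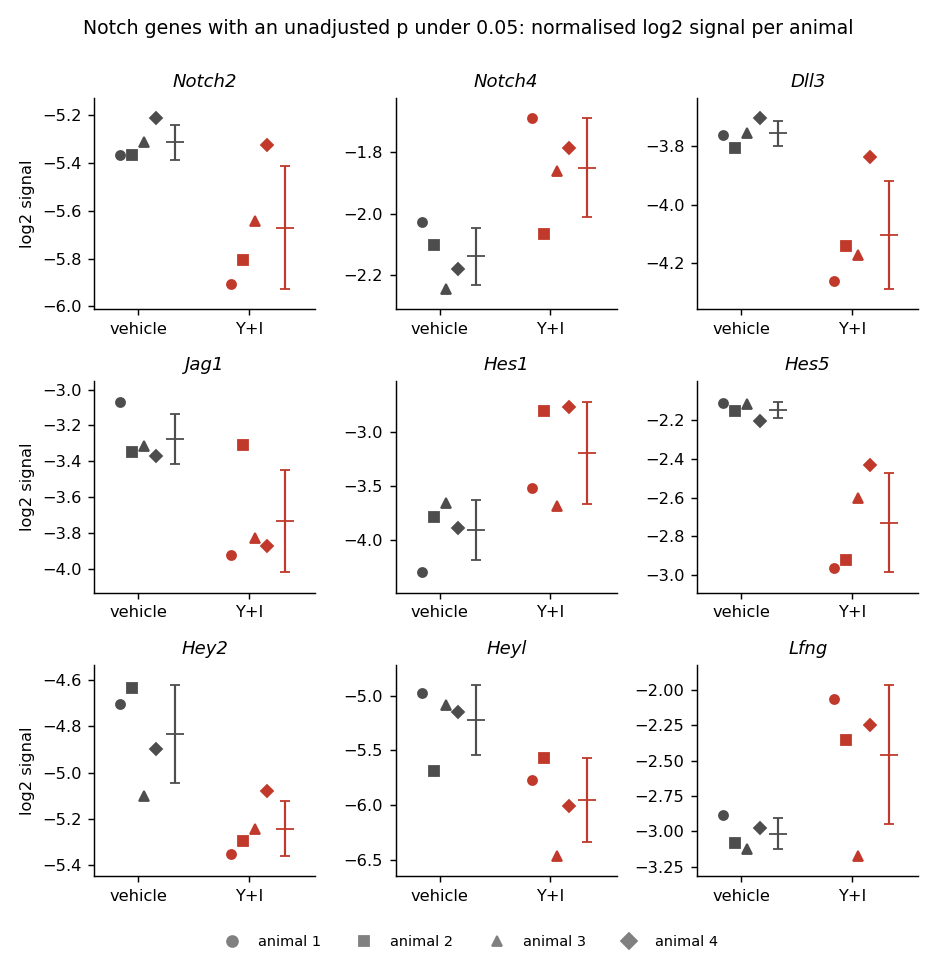
Normalised log2 signal (vertical axis, separate scale per gene) of each animal for the 9 Notch genes with an unadjusted p under 0.05; symbols mark the animal number within each group, and the line with bars gives mean and SD, n = 4. Notch2, Hey2 and Heyl were kept through vehicle, and neither their p nor their direction is read. All Y+I animals lie below all vehicle animals for Dll3 and Hes5, while for Lfng Y+I animal 3 at -3.17 lies apart from the other 3.

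Beyond the members, 40 further Notch pathway genes were listed, among them the ADAM and gamma-secretase proteases, Deltex and Mind bomb ligases and corepressors. Of these, 35 had a probe and 32 were tested; none passed, 15 were above and 17 below 0, and their median was -0.02. Nrarp, a feedback inhibitor that Notch itself induces, had the smallest p. It had 0.54, 0.11, 0.36 and 0.31 in vehicle and -0.01, -0.32, -0.10 and -0.35 in Y+I, with no overlap, and a difference of -0.53 ± 0.13 (SE, adjusted p = 0.0759). Nrarp was well above background on all arrays, normexp gave -0.46, and it passed in 2 of 20 alternatives, without a filter (adjusted p = 0.0411) and with a trended robust variance (0.0406). Of the 32 tested genes of this list, 1 was lower and 1 higher in Y+I with no overlap between groups. Over all features 6.66% were lower and 5.04% higher in that way.

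The Hedgehog members were mostly dim. Shh, the ligand, had -5.10, -5.33, -5.45 and -5.26 in vehicle and -5.49, -5.44, -6.00 and -5.02 in Y+I, with overlapping groups and a difference of -0.21. It was 0.16 with normexp and 0.03 without Y+I animals 2 and 3. The probes of Ihh, a second ligand, cleared background on 2 vehicle arrays at most and on no Y+I array, and those of Gli3, a largely repressive GLI factor, and Cdon, a coreceptor, on none of the 8. No difference from the main processing is given for these 3 genes.

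Among receptor components, Ptch1, both the receptor and a target of the pathway, had -6.01, -6.13, -6.42 and -6.36 in vehicle and -7.18, -7.64, -6.89 and -6.16 in Y+I. Animals 1, 2 and 3 of Y+I were below every vehicle animal. They were also not well above background, and only animal 4, inside the vehicle range, was. The difference was -0.74, -0.44 without Y+I animals 2 and 3, and 0.15 with normexp. Smo, the signal transducer, was well above background on all arrays, with -2.93, -3.25, -3.44 and -3.14 in vehicle and -3.04, -4.49, -2.95 and -3.90 in Y+I. Y+I animals 1 and 3 were at the vehicle level and animals 2 and 4 below it. The SD went from 0.21 to 0.73, the largest of any member in Y+I, and the difference was -0.40 ± 0.32 (SE, adjusted p = 0.604), with an interval from -1.13 to 0.33.

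Of the GLI factors, Gli1 was dim and Gli2 was detected throughout. Gli1, an activator whose own transcription reads out the pathway, had -5.41, -6.16, -5.68 and -5.50 in vehicle and -6.36, -7.17, -7.32 and -6.24 in Y+I. Every Y+I value was below every vehicle value, and animal 4 came nearest. Gli1 was kept through vehicle, so nothing is read from this order. Over all features 6.66% were lower in Y+I without overlap. The mean went from -5.69 ± 0.33 (SD, n = 4) to -6.77 ± 0.55, a log2 difference of -1.08. The probe, at chr7:67288638-67288697 of rn4, cleared background on 1 Y+I array, that of animal 4. With normexp the difference was 0.01, and without Y+I animals 2 and 3 it was -0.61. The lowest signal of a probe with all its spots well above background lay between -7.38 and -6.88 on vehicle arrays and between -6.72 and -5.08 on Y+I arrays, and Gli1 and Ptch1 lay under that level in Y+I animals 1, 2 and 3.

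Most dim features below 0 turned above 0 with normexp as well. Of 3634 features that cleared background on all vehicle arrays but missed it on some Y+I array, 71.7% were below 0, and 92.8% of those turned above 0 with normexp. All 8 members of that kind that were below 0 did so: Notch2, Dll4, Hey2, Heyl, Maml1, Shh, Ptch1 and Gli1. The median of these dim features was -0.19, and 0.24 with normexp. Probes that cleared background on none of the 8 arrays were above 0 with normexp too. Gli3 stood at 0.30, Cdon at 0.36, 1 Ihh probe at 0.37 and a second Maml1 probe at 0.32. The 75th percentile of processed signal was 1939 to 2106 on vehicle arrays and 1883, 1408, 1971 and 1045 on Y+I arrays. Normexp values carry an offset of 50, so a value above 0 at a dim probe is not read as a rise in Y+I.

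Gli2, the main activator downstream of Smoothened, had -2.77, -2.82, -2.75 and -2.80 in vehicle and -2.52, -2.82, -2.24 and -2.42 in Y+I. Y+I animal 2 stood at the vehicle level and the other 3 above it. The difference was 0.29 ± 0.13 (SE, adjusted p = 0.316), and 0.31 with normexp. Its other, dimmer probe gave -0.24 and cleared background on 1 Y+I array; the mean of both was 0.03. Sufu, which holds GLI proteins in the cytoplasm, stayed close to 0, at 0.01 ± 0.09 (adjusted p = 0.984), with an interval from -0.20 to 0.21. Its probe spans 8164 bases of rn4, more than its own length, so it crosses an intron.

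**Figure D3:**
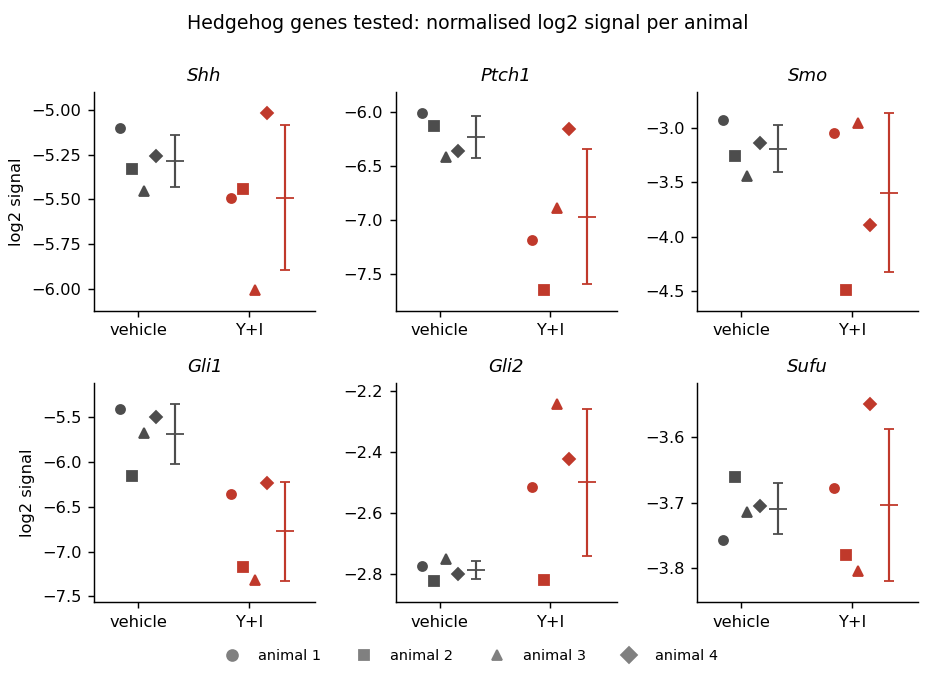
Normalised log2 signal (vertical axis, separate scale per gene) of each animal for the 6 tested Hedgehog genes; symbols mark the animal number within each group, and the line with bars gives mean and SD, n = 4. Vehicle and Y+I values do not overlap for Gli1. It was detected clearly on 1 of 4 Y+I arrays and kept through vehicle, so this separation is not read. Smo spreads from -4.49 to -2.95 within Y+I.

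The Ptch1 promoter window is shown as the only window of a tested Hedgehog gene with the core of the GLI site. It lies on the plus strand at chr17:1555321-1555620 of GRCr8, and capitals mark TGGGTGG, the other strand of CCACCCA, beginning at -172.
Ptch1: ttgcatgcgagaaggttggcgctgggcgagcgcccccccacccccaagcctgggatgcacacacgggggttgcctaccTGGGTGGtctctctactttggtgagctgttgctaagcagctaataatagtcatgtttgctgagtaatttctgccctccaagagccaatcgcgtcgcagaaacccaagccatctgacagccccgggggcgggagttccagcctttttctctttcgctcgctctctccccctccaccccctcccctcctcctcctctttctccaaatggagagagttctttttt
This core was in 8.87% of all windows, in 2 of the 8 Hedgehog genes with a window, Ptch1 and Gli3, and in 2 Notch genes, Heyl and Lfng. No window of Gli1 was used here.

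A list of 30 other Hedgehog pathway genes held cilium transport, ligand release and kinase genes. Of these, 28 had a probe and 23 were tested; none passed, 11 were above and 12 below 0, and their median was -0.02. Evc, a ciliary protein that binds Smoothened, came first by p, but it had been kept through vehicle and nothing is read from its direction. Vehicle animals ranged from -6.88 to -6.50 and Y+I animals from -7.43 to -6.96 (difference -0.45), but no Y+I array cleared background for it. The difference of Evc was 0.22 with normexp, -0.67 with quantile normalisation, -1.0 with cyclic loess and -1.01 with the value table. No fold is given, since its vehicle mean of -6.75 lay below the mean level of clear detection on Y+I arrays (-5.83). Csnk1a1, casein kinase 1 alpha, which phosphorylates GLI proteins and Smoothened, had -0.91, -0.71, -0.50 and -0.57 in vehicle and -0.32, -0.42, -0.06 and -0.22 in Y+I. The groups of Csnk1a1 did not overlap, and 5.04% of all features were higher in Y+I without overlap. Its difference was 0.42 ± 0.13 (SE, adjusted p = 0.142).

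**Figure D4:**
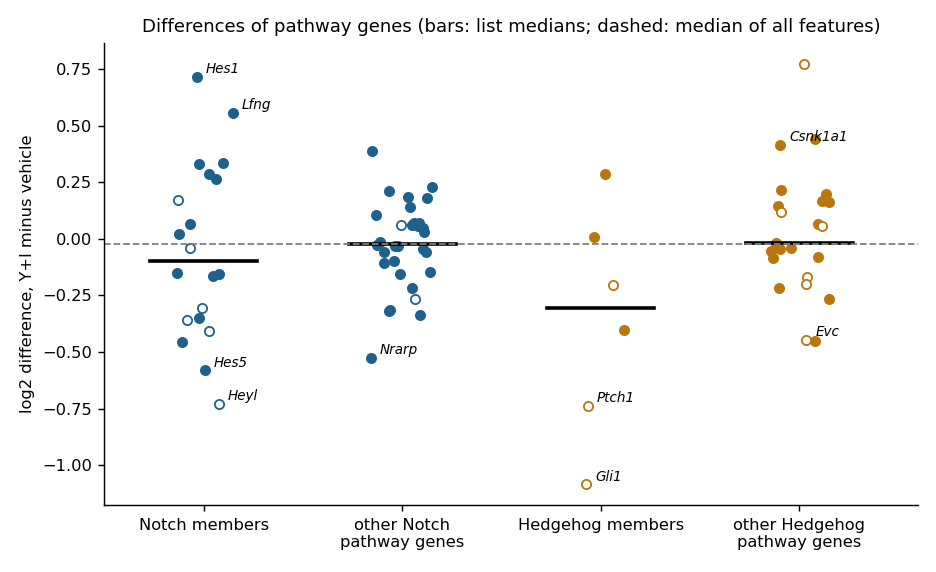
Log2 difference (Y+I minus vehicle, vertical axis) of each tested Notch and Hedgehog member and of the other genes listed for each pathway; hollow points missed clear detection on at least 1 array, black bars are list medians and the dashed line is the median of all features. The 2 lists of other genes centre on the dashed line at -0.02, and Hes1 at 0.72, Hes5 at -0.58 and Lfng at 0.56 are the filled member points farthest from it. The hollow points of Gli1, Ptch1 and Heyl lie lower, and normexp turns them to 0.01, 0.15 and 0.05.

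Levels of cell type markers are given beside these values. In bulk tissue, fewer cells of a type and less RNA per cell cannot be told apart. Signals were summed per list in multiples of the array's 75th percentile, so that a sum follows its brightest probe, and counts of single markers at an unadjusted p under 0.05 are given beside it. Over all features 6.45% were higher and 9.17% lower in Y+I at that level. The 12 astrocyte markers summed to 231 to 249 in vehicle and 189 to 243 in Y+I, with Aldoc making up 53.5%. Of these 2 were lower and none higher, with a median difference of -0.03. The 8 tested neural progenitor markers summed to 8.88 to 9.80 and 7.06 to 9.13, with Sox2 making up 71.6%. Here 1 was higher and 1 lower, and the median was 0.01. Endothelial markers, 11 of 12 tested, summed to 15.2 to 16.3 and 13.1 to 15.7, with 60.5% from Slco1a4, 3 lower and a median of -0.16. The 10 mural markers summed to 4.81 to 5.10 and 3.95 to 4.74 without overlap, with 53.7% from Cspg4, 4 lower and a median of -0.24. Cspg4 itself differed by -0.16, with overlapping groups. Among the 4 lower mural markers, Anpep had been kept through vehicle, and normexp brought it to -0.07. No astrocyte, progenitor, endothelial or mural marker passed after adjustment.

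The sums of the next 3 lists did not overlap between groups. The 10 meningeal and fibroblast markers summed to 4.17 to 5.27 in vehicle and 2.97 to 3.61 in Y+I. Igfbp2 made up 38.1%, and the median difference was -0.59. At the same level 6 of 10 were lower, of which 3 passed after adjustment. Among the 6, Aldh1a2 had been kept through vehicle, and normexp turned it to 0.20. Dcn was above 0, at 0.19. The 8 tested thalamus and habenula markers summed to 4.26 to 5.02 and 2.46 to 2.80, with 27.5% from Slc17a6 and a median of -0.53. There 5 of 8 were lower, and Slc17a6 passed (adjusted p = 0.0292), while Tcf7l2 at 0.09 and Zic1 at 0.38 were above 0. Markers of hippocampal neurons, 9 of 10 tested, summed to 10.2 to 12.3 and 13.1 to 21.1. Neurod2, whose groups overlapped, made up 42.5% of that sum, and the median of the list was 0.56. There 5 of 9 were higher, and Camk2a passed (adjusted p = 0.0366), while Calb1 at -0.17 was below 0. Of the choroid plexus markers, 4 of 10 were bright enough, and their sums overlapped widely (0.216 to 4.55 and 0.319 to 1.46). Microglia markers (16.0 to 18.1 and 14.2 to 20.5) and oligodendrocyte markers (169 to 187 and 167 to 215) overlapped as well, and none of them passed. The part of these shifts in the values of Hes5, Nrarp or any other member was not tested.

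**Figure D5:**
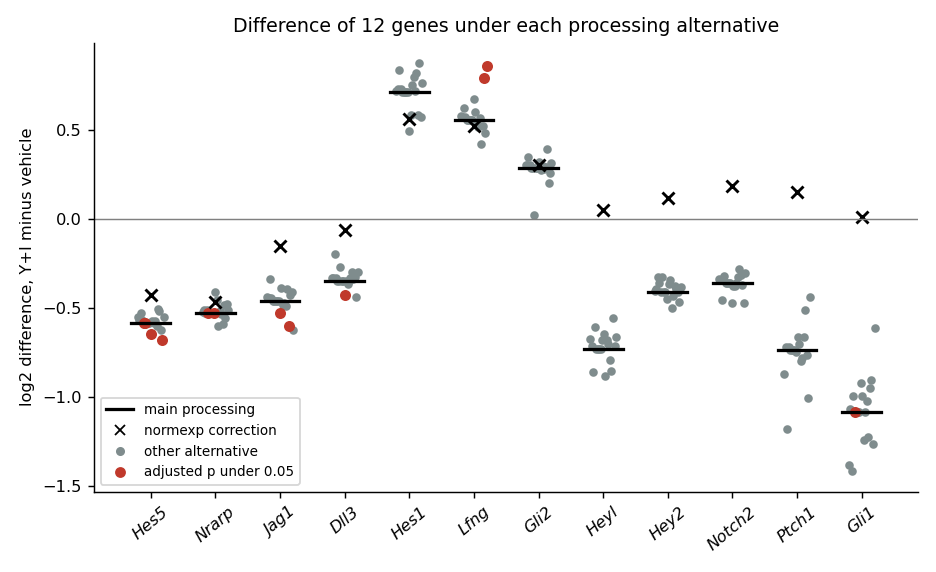
Log2 difference (Y+I minus vehicle, vertical axis) of 12 genes under the main processing (black bar), with normexp background correction (cross) and under each other alternative (points, red where the adjusted p was under 0.05). Hes5, Nrarp, Hes1 and Lfng keep their sign in all alternatives, which reuse the same arrays. Heyl, Hey2, Notch2, Ptch1 and Gli1 were kept through vehicle, so the sign they share across alternatives is not read. They lie below 0 in each of their 19 alternatives but normexp, which puts them between 0.01 and 0.19. For Hey2 that value is from its other probe, the brighter one after that correction.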

How the data were processed

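Per the labels' protocols, Cy3-labelled hippocampal RNA of each of 8 rats went onto a 1-colour Agilent rat array. Sample titles gave group and animal number. By the deposited file headers, Agilent Feature Extraction 10.5.1.1 gave each spot a mean, a background and a processed intensity, which is background-subtracted and detrended, not normalised between arrays, and a surrogate near background. The deposited value table holds log2 values with no stated scale. Against the scanner values its columns correlated at 0.999 or more after rounding, had medians from -3.51 to -3.35, and lay 0.59 to 0.67 above the main values, so it was taken as log2 signal with another centring and used only as an alternative.

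Main values were log2 processed signal minus the array's 75th percentile over noncontrol spots. Spots flagged as outliers were dropped, no spot was saturated, and spots of a probe were averaged. Of 30367 probes, 21370 were kept: well above background (on at least 50% of spots) on all 4 arrays of a group, with at least 3 values per group. Gene symbols follow RefSeq (GRCr8): 18383 probes were found there through an accession, 2179 through a symbol and 603 through a synonym, 142 kept the file's name and 9060 had none. The brightest kept probe stood for a gene. Probe positions are on rn4, and exon or UTR annotation of that build was not used here. Groups were compared over all 18860 features with lmFit and eBayes of limma 3.58.1 (R 4.3.3), as two-sided tests, adjusted by Benjamini-Hochberg, threshold 0.05. The script was tested on simulated data. Figures used matplotlib 3.10.9 in Python 3.11.15.

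The members and lists were chosen with earlier results of these data known. Values per animal are given for members with an unadjusted p under 0.05 (all 6 tested in Hedgehog) and the others by level and difference. Of the other pathway genes the 2 with the smallest p per list are named, except 1 result that is not reported here. Each replicate is 1 animal by its title; precision is limited by how few arrays there are. The promoters of Lfng and Ptch1 were added after their values were seen. Alternatives were other normalisations (quantile, median, cyclic loess), normexp with an offset of 50, the value table, filters, probe means, a block for animal number, variance models, array weights and arrays left out.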

Additional observations from a re-analysis of the deposited data

Results flagged for a closer look

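Among the 52 sets of 4 animal values of the tested members, 1 had a value far from the others: Jag1 in Y+I animal 2, at -3.31 where the other 3 Y+I animals lay between -3.92 and -3.83. Its gap to the next value was 0.849 of the group's range, above Dixon's limit for 4 values. Chance flags about 5% of such groups.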

How the results depend on the processing

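No Notch or Hedgehog member passed in the main processing, and members passed under few alternatives. Of 570 values of 29 named genes under the alternatives, 532 kept direction and side of the threshold, 15 passed and 23 changed direction. Of those that passed, 3 were of Evc and 1 of Gli1. Nothing is read from these, as both genes were kept through vehicle in the main processing. With no filter, 1 Notch (Hes5) and 1 Hedgehog member (Gli1, detected on 1 Y+I array) passed and 3950 features in all, against 441; with the filter on all 8 arrays 1 Notch member (Hes5), with array weights 3 (Dll3, Jag1, Hes5) and without Y+I animals 2 and 3 together 1 (Lfng, with 171 features in all). Cyclic loess called 717 features and the replicate block 144, with 0 members of either pathway. The animal numbers did not pair the samples: same-numbered deviations correlated at 0.05, -0.11, -0.04 and 0.04, and 1 of 4 vehicle animals matched its own number best. Leaving out 1 array gave 116 to 354 features, 0 to 1 Notch and 0 Hedgehog members. The Notch median, -0.10, was 0.13 with normexp, 0.042 with the filter on all 8 arrays, -0.018 without Y+I animals 2 and 3, and between -0.10 and -0.0083 with 1 array left out (-0.0083 without Y+I animal 2). The Hedgehog median, -0.30, was 0.14 with normexp. With no filter (9 genes) and with the filter on all 8 arrays (3 genes) it was 0.0059, in both the value of Sufu. The genes with no filter include Ihh, Gli3 and Cdon, too dim to be tested in the main processing. The range of the Hedgehog median was -0.40 to -0.16 with 1 array left out. Over all features the median moved from -0.02 to 0.09 with normexp. Normexp turned Notch2 to 0.19, Dll4 to 0.14, Hey2 to 0.12, Heyl to 0.052, Maml1 to 0.19, Shh to 0.16, Ptch1 to 0.15, Gli1 to 0.012 and Evc to 0.22. Cyclic loess turned Dll1 to -0.0028 and the value table turned Maml1 to 0.020. Without Y+I animals 2 and 3, Rbpj was -0.0082, Numb 0.20 and Shh 0.029. With 1 array left out, Rbpj ranged from -0.11 to 0.13, Numb from -0.40 to 0.0022, Maml1 from -0.090 to 0.012 and Sufu from -0.045 to 0.040. The cause of these shifts was not tested. Signal over background limits Gli1, Ptch1, Evc and the other dim genes, for which the Y+I values lie near or under the level of clear detection.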
